A study of Glycine max with 3 samples.

Results

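The miR396 family was taken as every listed small RNA named miR396, with any letter and on either arm of its hairpin, together with every degradome pair listed for it. By this rule 7 distinct sequences were found among 381 in the profile tables, from 18 of 587 entries and 9 hairpins. Of 898 degradome pairs of a small RNA and a transcript, 72 belonged to the family. These pairs covered 45 transcripts of 25 gene loci, out of 275 loci in the table.

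The study sampled leaves of Taiwan 75, a cultivar of vegetable soybean (Glycine max), whose seeds are harvested green. Plants had 1 true leaf. The chilled library came from plants moved to 4 °C for 24 h, and the control library from plants that were not chilled, grown at day and night temperatures of 25 °C and 17 °C. Light was the same for both, with a photoperiod of 12 h. Each is 1 small RNA library of 3 pooled replicates, so no difference between them has a replicate check, and a ratio compares these libraries only. The degradome, a separate library, pooled chilled and control leaves, so it carries no difference between them. It is labelled as leaf tissue, but the stage on its label, 10 days after pollination, is not that of the other libraries. The distinct sequences summed to 5347700 reads in the chilled and 3856902 in the control library, of which miR3522 alone held 91.2% in chilled and 88.1% in control. In bulk leaf RNA, fewer cells of a type and less RNA per cell cannot be told apart.

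A plant miRNA is cut from a folded hairpin by a Dicer-like enzyme as a duplex of a 5p and a 3p strand, of which usually one is loaded into an Argonaute protein and the other is degraded. miR396 is conserved across seed plants, and its 5p strand is the one known to pair with messenger RNAs of growth-regulating factors. These transcription factors, named GRF, act with GRF-interacting co-activators to keep cells of young leaves dividing, and miR396 restricts them as leaf cells mature. In Arabidopsis, strands that start with uridine are preferred by Argonaute 1.

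The 7 mature sequences are shown 5′ to 3′ in DNA letters because the 2 arms differ in how much they vary; capitals mark the seed, bases 2 to 8.
miR396a-5p: tTCCACAGctttcttgaactg
miR396b-5p: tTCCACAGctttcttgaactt
MIR396j-p5: tTCCACAGatttcttgaactg
miR396a-3p: gTTCAATAaagctgtgggaag
miR396b-3p: gCTCAAGAaagctgtgggaga
miR396j: aTTCAAGAtagctgtggaaaa
MIR396c-p3/MIR396f-p3: gTTTAAGAaaaatgtggaaaa

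All 7 are 21 nt long. The 3 sequences of the 5p arm start with T (uridine in the RNA) and share 1 seed, whereas the 4 of the 3p arm start with G or A and have 4 different seeds. With positions counted from 1 at the 5′ end, miR396b-5p differs from miR396a-5p by G21T only, and MIR396j-p5 differs from it by C9A only. Between 3p sequences 4 to 6 of the 21 bases differ, for example T2C, T7G, A20G and G21A from miR396a-3p to miR396b-3p. The name miR396j carries no arm, and the authors' table places it on the 3p side. MIR396c-p3 and MIR396f-p3 are names of 1 sequence.

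The 9 hairpins lie on 5 chromosomes. Coordinates are as deposited, and the sources used here do not name their genome build. The same mature sequence recurs at several of them: miR396a-5p and miR396b-5p are each listed at 4 hairpins, miR396j at 3, miR396a-3p and miR396b-3p at 2 each. Reads of a repeated sequence cannot be traced to 1 hairpin. On chromosome 13, the hairpin of miR396b-5p and miR396b-3p (27517027 to 27517152, plus strand) and that of miR396a-5p and miR396a-3p (27525230 to 27525369, minus strand) are 8077 bases apart. The arrangement recurs on chromosome 17, where the miR396a hairpin (8774041 to 8774175, plus strand) and the miR396b hairpin (8782224 to 8782392, minus strand) are 8048 bases apart. In both places the 2 hairpins face each other on opposite strands. In all 9 hairpins the 3p strand reached 2 bases beyond the base paired with the start of the 5p strand in the authors' fold, the offset that Dicer-like enzymes leave.

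Of the hairpins, 3 are shown as deposited, with the authors' capitals on both arms, because they carry the 3 kinds of arm pair with a distinct 3p strand above the read minimum: the 2 of chromosome 13 and the one on the minus strand of chromosome 16 (31530670 to 31530803).
miR396b hairpin: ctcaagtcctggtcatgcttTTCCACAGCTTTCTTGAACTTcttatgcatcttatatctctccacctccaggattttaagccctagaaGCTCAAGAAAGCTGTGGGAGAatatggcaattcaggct
miR396a hairpin: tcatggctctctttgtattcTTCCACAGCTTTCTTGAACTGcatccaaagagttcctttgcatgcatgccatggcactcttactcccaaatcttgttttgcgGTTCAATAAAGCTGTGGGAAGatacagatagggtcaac
miR396j hairpin: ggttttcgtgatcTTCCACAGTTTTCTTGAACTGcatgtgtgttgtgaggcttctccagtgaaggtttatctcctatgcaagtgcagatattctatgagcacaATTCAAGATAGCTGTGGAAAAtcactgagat

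The 5p sequence listed for the chromosome 16 hairpin, MIR396j-p5, does not occur in it. Set against the hairpin's own 5p arm it carries T9A, and at position 9 it also differs from miR396a-5p (C9A). The 5p sequences listed for the other 8 hairpins matched exactly.

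The 3p arm held most miR396 reads in both libraries. Its 4 sequences summed to 5074 reads in the chilled and 3310 in the control library, against 209 chilled and 357 control reads for the 3 sequences of the 5p arm. The 5p arm thus made up 3.96% of the family's reads in the chilled library (95% Wilson interval 3.46 to 4.52) and 9.73% in the control library (8.82 to 10.7). Intervals here and below cover counting error only. All 18 miR396 entries hold fractions, such as 111.333 chilled reads for miR396j at 3 entries and 2116.5 for miR396a-3p at 2. Reads divided over the entries of a sequence would give such values, though MIR396j-p5, with 1 entry, also has a fraction. If they were divided, entries should be added up, and the 5p shares are 7.48% in chilled and 17.1% in control. Values below keep 1 entry per sequence, so they can understate miR396a-5p and miR396b-5p, at 4 entries, against the main 3p strands, at 2.

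The reads of each sequence are given as deposited for 1 entry, before any scaling. miR396a-3p had 2117 reads in the chilled and 1894 in the control library, and miR396b-3p had 2845 in the chilled and 1245 in the control library. miR396b-3p was thus the most abundant member in chilled leaves, and miR396a-3p in control leaves. miR396j followed on the 3p side with 111 chilled and 171 control reads. Among the 5p sequences, miR396a-5p led with 187 chilled and 323 control reads. miR396b-5p had 19.8 chilled and 23.9 control reads. MIR396j-p5 had 2.4 chilled and 9.31 control reads, and the sequence of MIR396c-p3 and MIR396f-p3 had 1 chilled and 0.5 control reads. The last 2 sequences therefore rest on a handful of reads in either library.

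**Figure D1:**
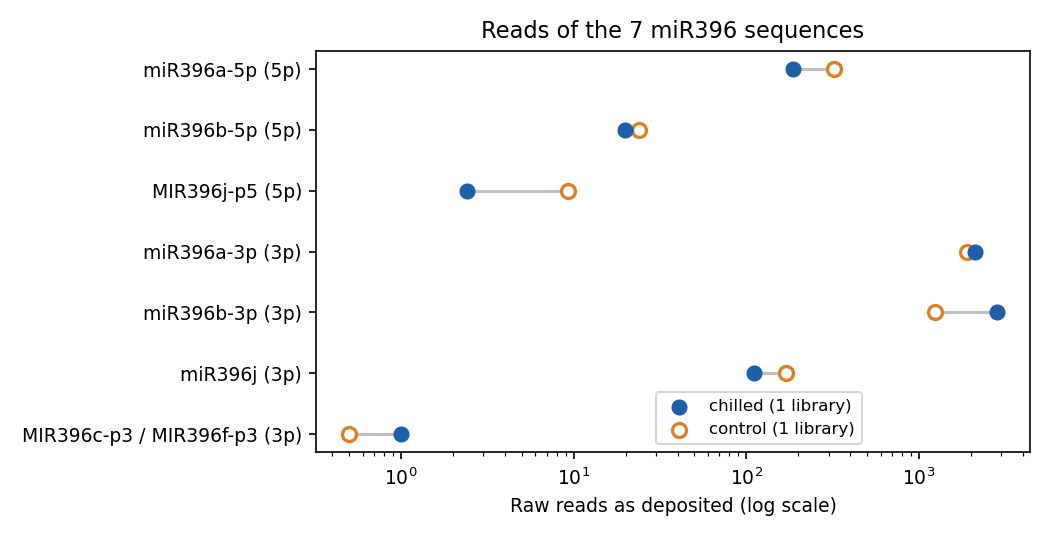
Raw reads (log scale, 1 entry per sequence) of each miR396 sequence in the chilled library (filled) and the control library (open), 1 library each, 5p sequences above 3p sequences. The 2 main 3p sequences lie at 1245 to 2845 reads, and the highest 5p sequence, miR396a-5p, at 187 chilled and 323 control reads.

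The arm that held more reads differed between hairpins. In 5 of the 9 the 3p strand had more reads than the 5p strand in both libraries, namely the miR396a and miR396b hairpins and the one on chromosome 16. In the other 4 the 5p strand had more, but its sequence is also listed at the miR396a or miR396b hairpins. Over all 86 hairpins of the table whose 5p strand starts with T and whose 3p strand does not, the 3p strand had more reads in 20 and the 5p strand in 59. Without miR396 these counts were 15 and 55 of 77.

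The 5p arm was 2.02-fold lower in chilled leaves after scaling, and the 3p arm differed by less than 2-fold. A sequence or sum was called higher or lower where the log2 ratio of chilled to control normalised reads, with a pseudocount of 1, was at least 1 either way and 1 library had at least 10 normalised reads. The 5p sum had a log2 ratio of -1.01 (95% interval -1.27 to -0.77), 192 chilled against 388 control normalised reads. The 3p sum had a log2 ratio of 0.37 (0.31 to 0.43), 4659 chilled against 3604 control normalised reads. The call of the 5p sum sits on the threshold: it was lost at -0.81 with a table total that leaves out miR3522, and at -0.77 with no scaling.

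Each 5p sequence lay below 0. miR396a-5p had a log2 ratio of -1.03 (-1.30 to -0.77), miR396b-5p -0.50 (-1.44 to 0.41) and MIR396j-p5 -1.80 (-5.67 to -0.14). miR396a-5p and MIR396j-p5 met the rule, and the interval of each included a ratio of less than 2-fold. With the total without miR3522 and with no scaling, miR396a-5p stood at -0.83 and -0.79, short of the rule, and MIR396j-p5 fell under the read minimum. The 3p sequences did not share a direction. miR396b-3p stood at 0.95 (0.85 to 1.04), just under the rule, which it met where miR3522 was left out of the total (1.15) and without scaling (1.19). miR396a-3p stood at -0.09 (-0.18 to 0.00), a sign that turned under the same alternatives (0.12 and 0.16). miR396j stood at -0.86 (-1.23 to -0.52) and met the rule at -1.08 where both table totals were set equal. The sequence of MIR396c-p3 and MIR396f-p3 was under the minimum.

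Of the 6 miR396 sequences above the minimum, 0 were called higher and 2 lower. MIR396j-p5, among the latter, passed the minimum in the control library only, at 10.1 control against 2.20 chilled normalised reads. A sequence that passes in control only can be called lower but not higher. Among all tested sequences, 14.1% of 213 sequences were called higher and 16.4% lower, so the 2 calls are too few to be set apart from the rest. The balance over all sequences turned with the scaling. It was 30 higher and 35 lower as reported, 19 higher and 52 lower with equal table totals, 40 higher and 26 lower with miR3522 left out, and 47 higher and 25 lower without scaling. The median log2 ratio was -0.68 over the 6 miR396 sequences, MIR396j-p5 included, and 0.06 over all 213. Sums were also made for 12 other families of the leaf growth and phase network, such as NAC-targeting miR164 and auxin-receptor-targeting miR393. Of these sums, 1 was called higher (miR164, 1.91), 1 lower (miR393, -1.26) and 10 neither. The miR393 sum rests on 19.8 chilled and 41.2 control reads, with an interval of -2.13 to -0.48. The median log2 ratio over the 12 sums was -0.15. The sum of all 7 miR396 sequences, most of it 3p reads, had a log2 ratio of 0.28 (0.22 to 0.34). The scaling shifts log2 ratios by about as much, -0.23 with equal table totals and 0.25 with no scaling. The family held 0.0988% of the summed reads in chilled and 0.0951% in control.

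**Figure D2:**
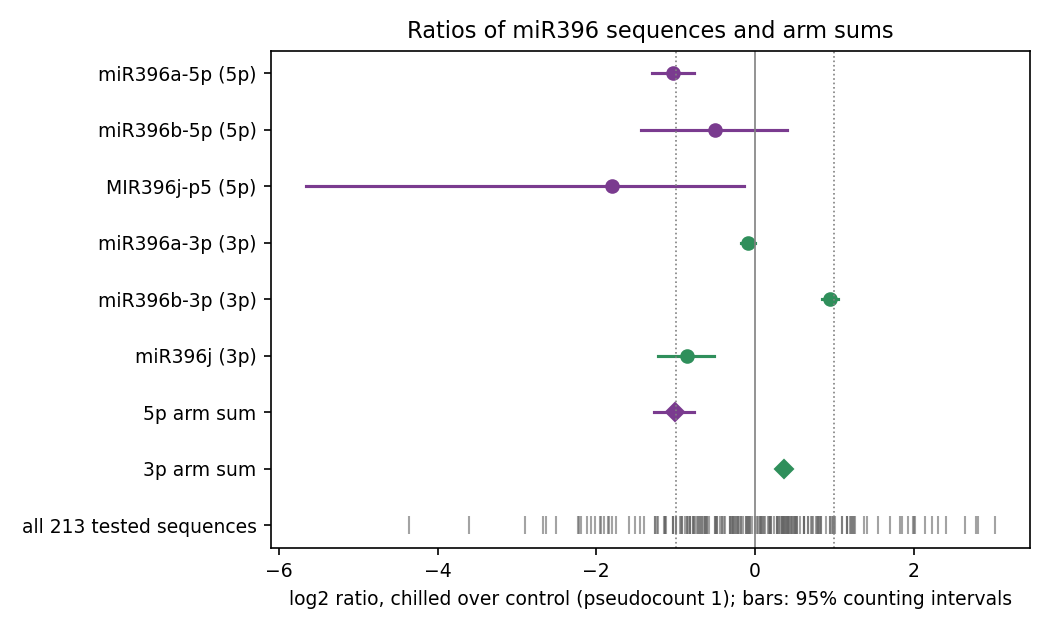
log2 ratios of chilled to control normalised reads for the 6 miR396 sequences above the minimum and for both arm sums, with 95% counting intervals (bars), over the ratios of all 213 tested sequences (ticks); dotted lines mark 2-fold. The 5p arm sum lies at -1.01 and the 3p arm sum at 0.37, and miR396b-3p at 0.95 stands apart from miR396a-3p at -0.09.

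Comparing the arms within a library removes the scaling. The 3p arm had 24.2 reads for each 5p read in the chilled library (21.1 to 28.0) and 9.28 in the control library (8.31 to 10.4), so the ratio of the arms was 2.61-fold higher in chilled leaves (2.19 to 3.14). For the miR396a pair the ratio was 11.3 in chilled and 5.86 in control, 1.93-fold higher (1.59 to 2.35). For the miR396b pair it was 144 in chilled and 52.1 in control, 2.77-fold higher (1.45 to 5.26). The 5p reads of both names can come from other hairpins too, so these are ratios of sequences and not of single hairpins. The ratios keep 1 entry per sequence, and their level depends on that choice. With entries added up, the family ratio was 2.55-fold higher in chilled leaves.

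A like change was then computed for every distinct pair of arms in the table whose strands both passed the minimum. It used normalised reads with a pseudocount of 1, so it differs from the ratios of reads above. For the miR396b pair the log2 change was 1.44 by this measure and 1.47 from the reads. The pseudocount weighs most on MIR396j-p5, at 2.4 chilled reads, and counts past 2-fold hold for this measure only. Among 77 such pairs, the ratio of 3p to 5p was at least 2-fold higher in the chilled library for 20.8% and at least 2-fold lower for 19.5%. Of the 4 miR396 pairs, 1 was at least 2-fold higher, miR396b-5p with miR396b-3p (log2 change 1.44). The others were miR396a-5p with miR396a-3p (0.95), MIR396j-p5 with miR396j (0.94) and miR396a-5p with miR396j (0.17). These 4 share strands and are not separate measurements, and MIR396j-p5 passed the minimum in the control library only. Their median was 0.94 and that of the 73 pairs of other families 0.11.

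Within the 3p arm the 2 main strands changed places. miR396b-3p made up 53.9% of the family's reads in the chilled library (52.5 to 55.2) and 33.9% in the control library (32.4 to 35.5). miR396a-3p made up 40.1% in chilled (38.7 to 41.4) and 51.6% in control (50.0 to 53.3). miR396j made up 2.11% in chilled and 4.66% in control. Both main strands come from the facing hairpin pairs of chromosomes 13 and 17 described above and are not listed at other loci.

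**Figure D3:**
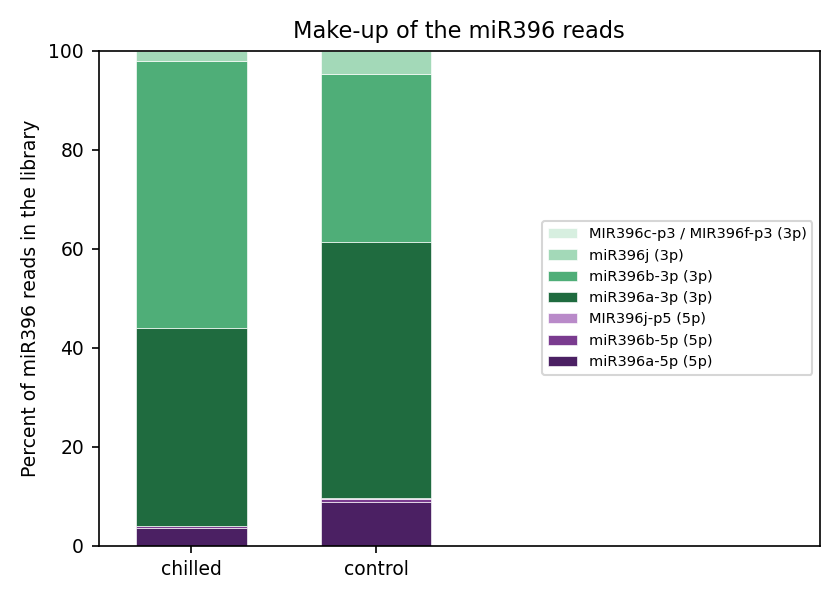
Percent of all miR396 reads taken by each sequence in the chilled and the control library, stacked from 0 to 100%, 5p sequences at the bottom. The 5p segment is 3.96% in chilled and 9.73% in control, and miR396b-3p is 53.9% in chilled and 33.9% in control.

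A degradome library holds the 5′ ends left when messenger RNAs are cut, so a miRNA's cut appears as a pile of reads at 1 position of the transcript. The authors' deposited table gives each pair an alignment score, an abundance named TPB, a p-value and a category between 0 and 4. A score of 0 is a perfect match and higher values are poorer matches. Category 0 usually means that the site is the single highest of its transcript, and category 4 that it holds 1 read. The abbreviation TPB is not spelled out. All 265 category 4 pairs held 81.4 TPB divided by a whole number from 1 to 10, within 0.001 of a whole number. The value of 81.4 TPB, a step found in the values and not defined in the headers, is used below as a unit.

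Growth-regulating factors made up 11 of the 25 loci and 48 of the 72 pairs listed for miR396. Their counts stand in a table in which 0 growth-regulating factor pairs were listed for any other family. The first pair, of lowest category and then lowest p, stands for a locus. Of the 11 loci, 8 had their first pair in category 0, and of the 14 other loci 2 did. Over all loci listed, 26.9% had their first pair in category 0. Counted as pairs, 38 of the 48 growth-regulating factor pairs and 3 of the other 24 were in category 0, against 28.8% of all pairs. Paralogous loci share abundance values, so these loci are not independent, and no test was made between the classes. The other 14 loci carry 8 named annotations and 1 without a name, and 0 pairs of the family were annotated as basic helix-loop-helix factors, of which miR396 cuts one in Arabidopsis.

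The GRF loci, named by the Arabidopsis factor that the authors' annotation gives, fell into 5 sets of shared abundance. GRF1 and GRF2 promote leaf growth in Arabidopsis. The highest GRF value was at the GRF2 loci Glyma.01G148600 (first transcript cut at position 548) and Glyma.09G212500 (position 569), with 1900 TPB per transcript. Their 3 transcripts add up to 70.0 units of 81.4 TPB. The 4 GRF1 loci, Glyma.17G232600 (position 1180), Glyma.17G232700 (1163), Glyma.U028600 (1106) and Glyma.U028700 (1121), held 965 TPB per transcript each. Their 6 transcripts add up to 71.1 units. This sum is not a whole number, unlike those of the other GRF sets, so the listed transcripts may hold only part of the set. All transcripts of a set have equal values, so the table does not tell them apart.

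GRF7 is known in Arabidopsis as a repressor of stress-response genes. One of its loci, Glyma.06G134600 (position 1103), held 1262 TPB per transcript, and its 2 transcripts add up to 31.0 units. The other, Glyma.04G230600 (position 1049), held 50.9 TPB on each of 8 transcripts, 5.0 units in all. Both are in category 0, so the category did not separate a site of high abundance from one of low abundance. Among GRF transcripts in category 0, 19 in number, abundance ranged 37.3-fold.

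GRF5 raises the number of leaf cells when overexpressed in Arabidopsis. Its loci Glyma.01G234400 (position 704), Glyma.11G110700 (593) and Glyma.12G014700 (504) were all in category 4 with 16.3 TPB per transcript. The 5 transcripts of these loci, 1 of them annotated as GRF2, add up to 1.0 unit of 81.4 TPB. The 3 loci therefore share an abundance of a single unit.

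Both main 5p sequences were listed for the same 24 GRF transcripts of 11 loci, and in all 24 at the same cut position. The alignment score was lower, meaning a better match, for miR396a-5p (3 to 3.5) than for miR396b-5p (4) in all 24. The sequences differ by G21T only, and no transcript sequence was used here to place that base in the pairing. The authors' p at GRF transcripts was lowest at 0.0782 for miR396a-5p, at GRF1, and at 0.235 for miR396b-5p. At the GRF2 and GRF7 loci of category 0 it was 0.121 for miR396a-5p. The alignment score of miR396a-5p was 3.5 at GRF1 and 3 at these loci, so the lower p went with the poorer match. No GRF locus had an authors' p under 0.05, against 21.1% of all loci in the table.

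The highest cut-site abundance per transcript in the authors' deposited table was at a miR396 target outside the GRF class. The loci Glyma.03G157700 (position 1638) and Glyma.19G159900 (position 2114) are annotated as E1-E2 type ATPases and described in the table as calcium-transporting ATPases, pumps that move calcium ions out of the cytosol. Each held 21899 TPB, 269 units of 81.4 TPB, in category 0. Per transcript, this was 11.5 times the highest GRF value and 2.74 times the highest value of any other family (7978 TPB). Values of other families were not added up over transcripts that share abundance. When abundance was added up over the transcripts of a locus, an alternative chosen after the values were seen, the ATPase value was 5.76 times the highest GRF locus. Both ATPase loci share 1 value, and as a set they add up to 538 units. The highest GRF sum was 71.1, over the listed transcripts of the GRF1 set, which may not be all of it. The median of all 555 listed transcript sites was 61.1 TPB.

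At the ATPase locus listed for both 5p sequences their order was the reverse of that at the GRF transcripts. At Glyma.03G157700 the alignment score was 3.5 for miR396b-5p and 4 for miR396a-5p, with an authors' p of 0.0331 for miR396b-5p and 0.124 for miR396a-5p. The pair with miR396b-5p was the only one of the 72 with an authors' p under 0.05, against 15.9% of all pairs. Glyma.19G159900 was listed for miR396b-5p only, at a score of 4 and an authors' p of 0.235. miR396b-5p was the scarcer strand, at 19.8 chilled and 23.9 control reads.

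**Figure D4:**
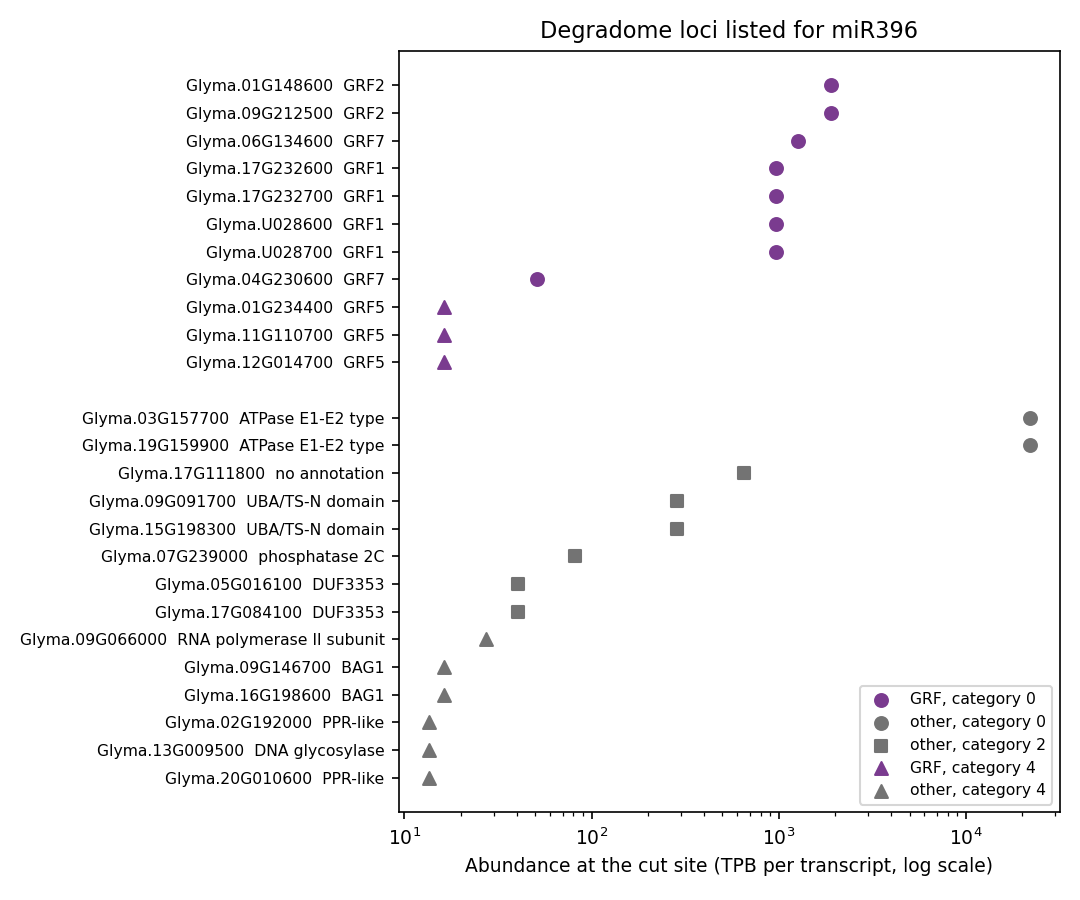
Abundance (TPB per transcript, log scale) at the first cut site of each of the 25 loci listed for miR396, growth-regulating factors (GRF) above the other targets, with the marker giving the category. GRF loci reach 1900 TPB, and the 2 ATPase loci lie at 21899 TPB.

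The other 12 loci were in category 2 (6 loci) or category 4 (6 loci). They are named after their values were seen. Glyma.17G111800 has no annotation and held the lowest alignment score of the family, 2 for miR396b-5p, with 651 TPB in category 2 and an authors' p of 0.20. The loci with a ubiquitin-associated domain, Glyma.09G091700 and Glyma.15G198300, held 285 TPB each. Glyma.07G239000, of the protein phosphatase 2C family that reverses protein phosphorylation, held 81.4 TPB. The category 4 loci, at 13.6 to 27.1 TPB, encode the second largest subunit of RNA polymerase II, BAG1 co-chaperones, pentatricopeptide repeat proteins, which bind RNA in organelles, and a DNA glycosylase of base excision repair.

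The 3p arm, with most of the reads, had few listed targets. Of the 3p sequences, miR396a-3p appeared, with 4 pairs at the loci Glyma.05G016100 and Glyma.17G084100. Both loci are annotated with a domain of unknown function and the symbol CDF1. Their pairs held 40.7 TPB per transcript in category 2, with an authors' p of 0.678. miR396b-3p, miR396j, MIR396j-p5 and the sequence of MIR396c-p3 and MIR396f-p3 had 0 pairs. The 5p sequences miR396a-5p and miR396b-5p held the other 37 and 31 pairs.

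The authors' p did not move with abundance once the sequence, category and score were given. For miR396, 4 of the 14 combinations of small RNA sequence, category and alignment score held more than 1 abundance, and each of these 4 had a single p-value. Over all small RNAs 42 of 241 combinations held more than 1 abundance, and all 42 had a single p-value. For miR396b-5p the authors gave 0.235 alike at the ATPase locus Glyma.19G159900 with 21899 TPB, at the GRF2 locus Glyma.01G148600 with 1900 TPB and at the GRF7 locus Glyma.04G230600 with 50.9 TPB.

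**Figure D5:**
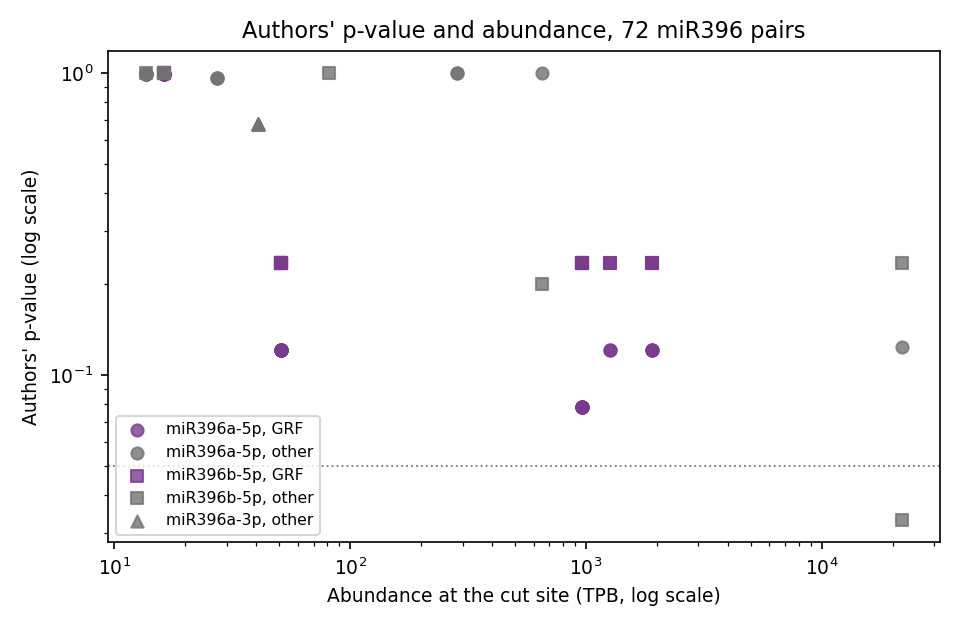
Authors' p-value against abundance (TPB), both on log scales, for the 72 miR396 pairs, by small RNA (marker) and target class (colour); the dotted line marks 0.05. Points at 0.235 and 0.121 recur from 50.9 TPB upwards, and 1 pair, an ATPase with miR396b-5p, lies under the line at 0.0331.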

How the data were processed

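Small RNA was read single-end from 1 chilled and 1 control library, and a degradome from 1 pooled library, per the labels' protocols. The profile tables hold raw reads that the authors deposited per entry, 339 of 587 entries with fractions, and they are treated here as estimated counts. Neither the aligner, the callers of miRNAs and targets nor the build is named in the sources used here. GC percent and a folding energy score were deposited for every hairpin. Of the known table, 6 lines were empty in the copy used and are not analysed here. The degradome table holds a deposited abundance signal (TPB), alignment score, category and p-value per pair.

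One entry was kept per distinct sequence, the one with the most reads. No miR396 sequence had entries that differed. Factors were computed by TMM in edgeR 4.0.16 (R 4.3.3) from reads rounded to whole numbers over all 381 sequences. The effective size of the chilled library, its total times its TMM factor, exceeded that of the control by 0.25 (log2). Size factors of DESeq2 1.42.0, the table total, the total without miR3522 and unscaled reads were alternatives, beside a pseudocount of 5, minimums of 100 and none, and sums over entries. The 95% intervals of ratios come from the exact conditional binomial, and those of shares are Wilson intervals. The scaling and ratios were tested on simulated data, with reads added to every sequence and as many rises as falls. Such data do not cover the scarcest sequences or an uneven balance of rises and falls. With 1 library per condition, chilled and control were not tested against each other. First pairs of a locus were those of lowest category, then lowest p-value, then first identifier. All sequences with at least 10 normalised reads, all growth-regulating factor loci and other loci in category 0 or 1 are named, and others were named after their values were seen. Members and lists were chosen with earlier results of these data known. The locus identifiers matched none of the names in the RefSeq gene table, so annotations are the authors'.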

Additional observations from a re-analysis of the deposited data

How the results depend on the processing

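With 1 library per condition, no replicate could be left out, and no paired analysis was possible because each group had 1 library. The calls of miR396 changed with the scaling. The 5p sum was -0.81 with the table total without miR3522, -0.77 with unscaled reads and -0.996 with a pseudocount of 5, where it no longer met the rule, and it stayed below 0 under each setting run. The 3p sum moved to 0.14 with the same table total, 0.58 without miR3522 and 0.62 unscaled. Sequences called higher were 1 and called lower 0 both without miR3522 and unscaled, 3 were called lower with the same table total (miR396j at -1.08 the added one), and 1 at a minimum of 100. Over the whole table, setting the table totals equal gave 19 higher against 52 lower calls, and no scaling gave 47 higher against 25 lower calls. A minimum of 100 left 7 higher against 14 lower calls, and no minimum 63 of each. Adding up entries moved the 5p share to 7.48% in chilled and 17.1% in control, while the ratio of the arms stayed 2.55-fold higher in chilled. Without miR396j this ratio was 2.69 and without MIR396j-p5 2.57, both alternatives added after seeing the data. Counted per pair, 38 growth-regulating factor pairs were in category 0. At an authors' p under 0.01, 0 other loci remained. Summed over transcripts, the ATPase abundance was 5.76 times the highest growth-regulating factor locus. Depth limits what can be said of MIR396j-p5, miR396b-5p, the sequence of MIR396c-p3 and MIR396f-p3, and the category 4 sites.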
